A study of Mus musculus with 6 samples.

Results

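The 6 genes Nmnat1, Nmnat2, Nmnat3, Nampt, Sarm1 and Mycbp2 were followed in mouse retina after axonal injury. They were taken by symbol from tables of 35485 genes, each was found once, and all 6 passed the filter on low values that left 13670 genes for testing. RNA was sequenced from whole retinas of wild type C57BL/6 mice, male per the study's methods and 12 weeks old, 2 days after optic nerve crush (ONC, called NC in the sample labels) or sham surgery. In ONC the nerve was pinched for 10 seconds at 2 mm behind the eye, and in sham it was only exposed. Each group held 3 samples, and each sample pooled RNA from 6 retinas of 6 mice, so that the spread between samples is a spread between pools and not between mice. Both groups had the same strain, genotype and age.

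NAD is the coenzyme that cells use for energy metabolism and that several enzymes consume as a substrate. In most cells it is rebuilt from nicotinamide: Nampt makes nicotinamide mononucleotide (NMN), and the NMNAT enzymes turn NMN into NAD in the nucleus (Nmnat1), on Golgi-derived vesicles and in the axon (Nmnat2) and in mitochondria (Nmnat3). Nmnat2 is a short-lived protein that axons need to survive, Mycbp2 (PHR1, Highwire in flies) is the ubiquitin ligase that sends it for degradation, and Sarm1 is the NAD-cleaving enzyme that destroys the axon once Nmnat2 is lost. Optic nerve crush injures axons of retinal ganglion cells (RGCs), whose cell bodies lie in the retina and are a small part of its cells.

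None of the 6 transcripts passed the test between ONC and sham in RNA of whole retina, where RGCs were not measured apart. The lowest adjusted p belonged to Nmnat2, whose mean was lower in ONC, but 1 ONC sample lay within the sham range. Nmnat1, Nampt, Sarm1 and Mycbp2 had fold changes close to 0, with narrow intervals for the last 3, and Nmnat3 had too few reads for a narrow interval. On introns, Sarm1 was lower in all 3 ONC samples, a call that was lost in most alternative fits. In the wider pathway, the NAD kinase gene Nadk2 and the low-abundance nicotinic acid enzyme gene Naprt were upregulated. They were 2 of 13 list genes tested, against 2.38% of all genes. The kinase genes Mapk10 and Map3k13 were downregulated, 2 of 19 list genes against 3.72% of all genes. Of these calls, only that of Mapk10 was kept without each sample in turn.

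The samples held 17343945 to 18349331 reads on exons in sham and 20019818 to 20358008 in ONC. Exons took 70.9% to 76.6% of the reads on genes in sham and 78.5% to 80.4% in ONC, so the groups did not overlap in this share. The deposited RPKM (exon reads scaled to exon length and to library size) counts intron reads in the library size and therefore carries that difference. Here exon reads were normalized by TMM and compared by the quasi-likelihood test of edgeR, and a gene was called at a Benjamini-Hochberg adjusted p under 0.1 (FDR). This called 833 of 13670 genes, 6.09%, of which 325 (2.38% of those tested) were higher and 508 (3.72%) lower in ONC, while the RPKM divisor turned the split to 1507 higher and 223 lower. ONC replicate 1 stood apart from the other 2 ONC samples: the counts differed by a chi-square per degree of freedom of 13.7 and 10.8 against 4.54 between replicates 2 and 3, and 2031 genes were called without it. Photoreceptor markers were abundant in all samples, with the rod gene Gnat1 at a mean RPKM of 5798 in sham.

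Per length of exon, the 6 genes spanned a wide range of levels in the uninjured retina. The mean deposited RPKM in sham was 15.0 ± 0.451 for Mycbp2, 14.7 ± 0.442 for Sarm1, 12.2 ± 0.705 for Nampt, 6.00 ± 0.713 for Nmnat2, 2.72 ± 0.419 for Nmnat1 and 0.944 ± 0.215 for Nmnat3 (SD, n = 3). Among the genes tested, Mycbp2 stood at percentile 72.8 of the sham mean RPKM, Nmnat2 at 45.3 and Nmnat3 at 13.7. Mycbp2 and Sarm1 overlapped in both groups and could not be ordered. Each further step down the order, from Sarm1 to Nampt to Nmnat2 to Nmnat1 to Nmnat3, separated all 3 samples of the upper gene from all 3 of the lower one, in sham and in ONC alike. The order of the means was the same in both groups. These levels depend on the gene models. In the files those of Nmnat1, Nmnat2, Nmnat3 and Sarm1 span less of the genome than in RefSeq. Mycbp2 differs by 40 bases at its end, and Nampt has the same span. Exon lengths were not compared with RefSeq.

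Nmnat2, the axonal NAD synthase, lies on chr1:152955101-153119261 with 11 exons in the files (positions match build GRCm38). It had 692, 661 and 580 exon reads in sham replicates 1 to 3 and 725, 603 and 496 in ONC replicates 1 to 3. In CPM (exon reads scaled to a library size adjusted by TMM) these were 39.6, 36.3 and 34.1 in sham and 36.6, 29.4 and 23.8 in ONC. ONC replicates 2 and 3 were below every sham sample, while ONC replicate 1 lay within the sham range. The mean was 36.7 ± 2.75 CPM in sham and 29.9 ± 6.38 CPM in ONC (SD, n = 3), a log2 fold change of -0.29 (SE 0.13, 95% interval -0.56 to -0.03). The unadjusted p was 0.0300 and the adjusted p 0.234 in edgeR, so Nmnat2 was not called. The value depended on single ONC samples: without replicate 1 it was -0.46 and called, with an adjusted p of 0.00671, and without replicate 3 it was -0.16 with an adjusted p of 0.648. With the RPKM divisor it was -0.18 (adjusted p = 0.391). With no filter on RPKM the adjusted p was 0.0983, just under the threshold, at a log2 fold change of -0.29. That fit called 1176 of 17655 genes tested.

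Nmnat3, the mitochondrial NAD synthase, lies on chr9:98296583-98411428 with 5 exons. It had 55, 53 and 37 exon reads in sham and 62, 72 and 82 in ONC, the fewest of the 6 genes with Nmnat1. In CPM these were 3.15, 2.91 and 2.18 in sham and 3.13, 3.51 and 3.94 in ONC. The highest sham sample and the lowest ONC sample overlapped by a narrow margin, and the other ONC samples were above all sham samples. The log2 fold change was 0.36 (SE 0.29, 95% interval -0.24 to 0.96, adjusted p = 0.568 in edgeR), and a change of nearly 2-fold upward or a small fall could not be told apart at this depth. Without sham replicate 3 the value was 0.22. When the reads on the whole gene, introns included, were counted in place of exon reads, the value turned to -0.26. The introns of Nmnat3 held 450 to 685 reads per sample, so exons made up 5.12% to 12.1% of the reads on the gene. RefSeq places the lncRNA gene Gm46126 and the pseudogene Gm28530 inside this gene, and neither has a row in the files. Whether counting used the strand is not given in the sources used here, so reads of these genes cannot be told apart from Nmnat3 introns.

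Nmnat1, the nuclear NAD synthase, lies on chr4:149468787-149485142 with 5 exons and overlaps Tmem274 in RefSeq. It had 59, 72 and 54 exon reads in sham and 66, 66 and 69 in ONC. In CPM the sham samples were at 3.38, 3.96 and 3.18 and the ONC samples at 3.33, 3.22 and 3.32. All 3 ONC values fell inside the sham range. Nmnat1 had a log2 fold change of -0.09 (SE 0.27, 95% interval -0.66 to 0.47, adjusted p = 0.901 in edgeR), an interval that leaves room for a change of over 1.5-fold downward.

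Nampt, the rate-limiting enzyme of the salvage route, lies on chr12:32820335-32853369 with 11 exons, and the lncRNA gene Gdap10 lies inside it. It had 1356, 1330 and 1287 exon reads in sham and 1359, 1559 and 1636 in ONC. The values of 77.6, 73.1 and 75.7 CPM in sham and 68.5, 76.0 and 78.6 CPM in ONC overlapped, with the lowest and the highest value both in ONC. Nampt had a log2 fold change of -0.02 (SE 0.07, 95% interval -0.17 to 0.13, adjusted p = 0.924 in edgeR). Its sign changed under other scalings and without ONC replicate 1.

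**Figure D1:**
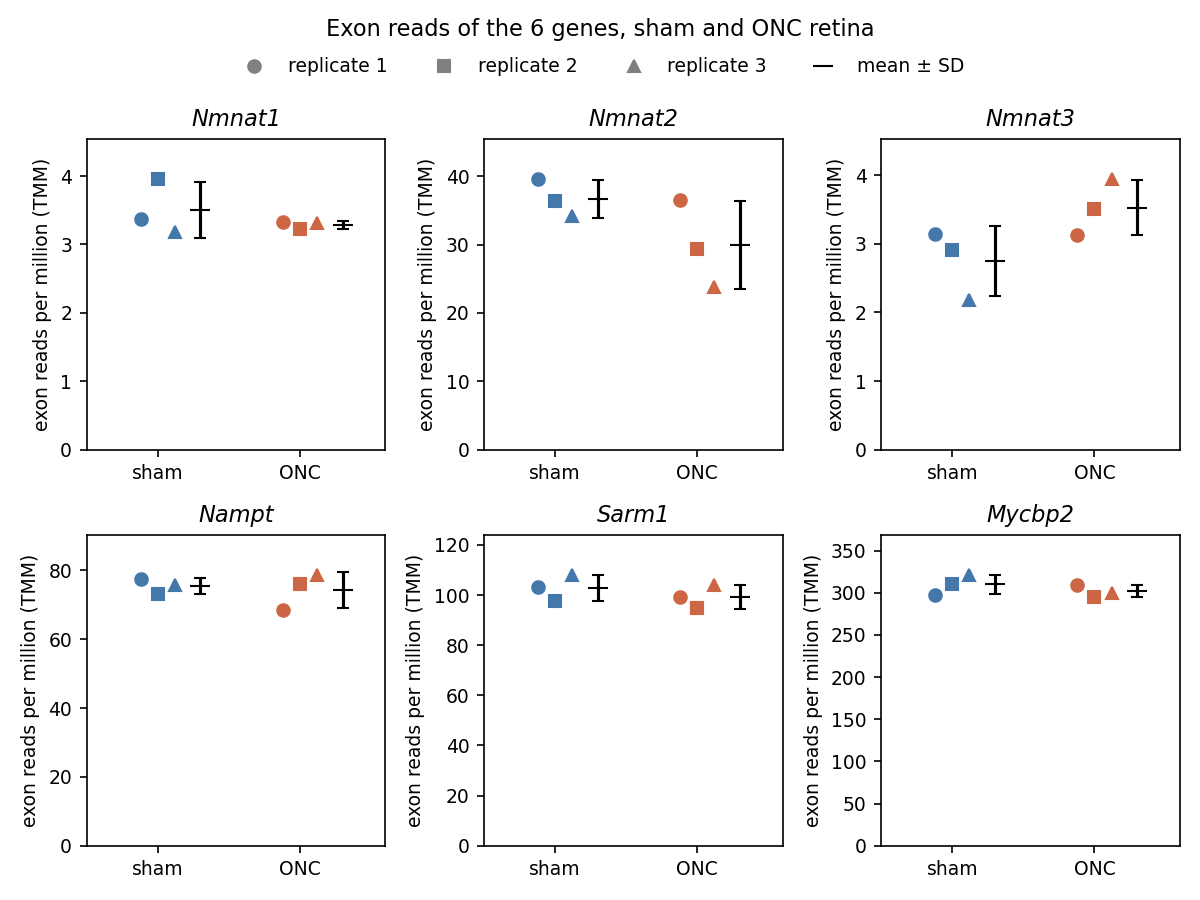
TMM-normalized exon reads in CPM (vertical axes, from 0) of the 6 genes in sham (blue) and ONC (orange) retina, with 1 marker shape per replicate number and the mean ± SD beside them. For Nmnat2 ONC replicates 2 and 3, at 29.4 and 23.8 CPM, lie below all sham samples and replicate 1, at 36.6 CPM, does not, and in each of the 6 panels the groups overlap.

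Sarm1, the executor of axon degeneration, lies on chr11:78472330-78497754 with 10 exons. It had 1802, 1774 and 1835 exon reads in sham and 1965, 1941 and 2167 in ONC. In CPM the sham samples were at 103, 97.5 and 108 and the ONC samples at 99.1, 94.7 and 104, with wide overlap. Sarm1 had a log2 fold change of -0.05 (SE 0.07, 95% interval -0.19 to 0.09, adjusted p = 0.763 in edgeR). Mycbp2, the ligase gene, lies on chr14:103113411-103346800 with 85 exons and had the most reads, 5202, 5655 and 5454 in sham and 6137, 6057 and 6234 in ONC. Its values of 298, 311 and 321 CPM in sham and 310, 295 and 300 CPM in ONC overlapped. The log2 fold change of Mycbp2 was -0.04 (SE 0.06, 95% interval -0.16 to 0.08, adjusted p = 0.783 in edgeR). For Nampt, Sarm1 and Mycbp2 the intervals therefore excluded a 1.5-fold change (0.58 on the log2 scale) in whole retina, in either direction. That is the fold change that the study required of its DEGs. A change limited to RGCs, a small part of the cells of the retina, was not measured apart.

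Over the 6 genes, edgeR called 0 at FDR 0.1, against 6.09% of all genes tested, and 0 were DEGs with a fold change above 1.5 as well, against 1.66%. Of the 6, 1 (Nmnat2) had an unadjusted p under 0.05, against 16.7%. The DESeq2 Wald test and limma on log2(RPKM + 0.1) also called 0, and 1 and 0 genes had an unadjusted p under 0.05. In CPM 0 of 6 genes had groups that did not overlap, against 21.8% of all genes, 11.0% with ONC higher and 10.8% with ONC lower. In the deposited RPKM the groups of Nmnat3 and Mycbp2 did not overlap, with ONC higher, as was the case for 25.4% of all genes tested with that divisor and 3.45% in the other direction. For Nmnat3 the RPKM was 0.700 to 1.108 in sham and 1.134 to 1.463 in ONC, and for Mycbp2 it was 14.6 to 15.5 and 15.8 to 16.0. The median log2 fold change of all genes was 0.01 with TMM and 0.13 with the RPKM divisor. The median of the 6 genes was -0.04 and 0.08 under the same scalings, with 1 and 5 of them above 0. The signs of Nmnat1, Nampt, Sarm1 and Mycbp2 thus depend on the scaling, whereas Nmnat2 stayed below 0 and Nmnat3 above 0 with both.

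Proportions between these genes within a sample do not depend on the scaling. Nmnat2 and Sarm1 act on the same step of axon survival with opposite effects, and the RPKM of Nmnat2 divided by that of Sarm1 was 0.438, 0.425 and 0.361 in sham and 0.421, 0.355 and 0.261 in ONC. The mean was 0.408 ± 0.0415 in sham and 0.346 ± 0.0804 in ONC (SD, n = 3), a difference of -0.26 on the log2 scale (p = 0.2, exact permutation test, two-sided, where 3 against 3 samples cannot go below 0.1). Without ONC replicate 3 the difference was -0.07 and without ONC replicate 1 it was -0.42. The lowest values belonged to ONC replicates 2 and 3, and ONC replicate 1 was inside the sham range. Of the summed RPKM of the 3 Nmnat genes, Nmnat2 made up 63.7%, 59.4% and 63.5% in sham and 62.1%, 56.5% and 49.9% in ONC. The difference of the means, 62.2% ± 2.43 and 56.2% ± 6.12 (SD, n = 3), was -6.02 percentage points (p = 0.2, exact permutation test, two-sided), and -2.87 without ONC replicate 3. The share of Nmnat3 was 10.6%, 9.97% and 8.48% in sham and 11.1%, 14.1% and 17.3% in ONC, and that of Nmnat1 was 25.7% to 30.7% and 26.8% to 32.9%. The Nmnat3 groups did not overlap, on 37 to 82 exon reads per sample, and their difference was not tested. The 3 shares add up to the whole, so a higher share of Nmnat3 (mean 9.68% in sham, 14.2% in ONC) lowers the others. Transcript shares say nothing of the amounts of the enzymes.

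**Figure D2:**
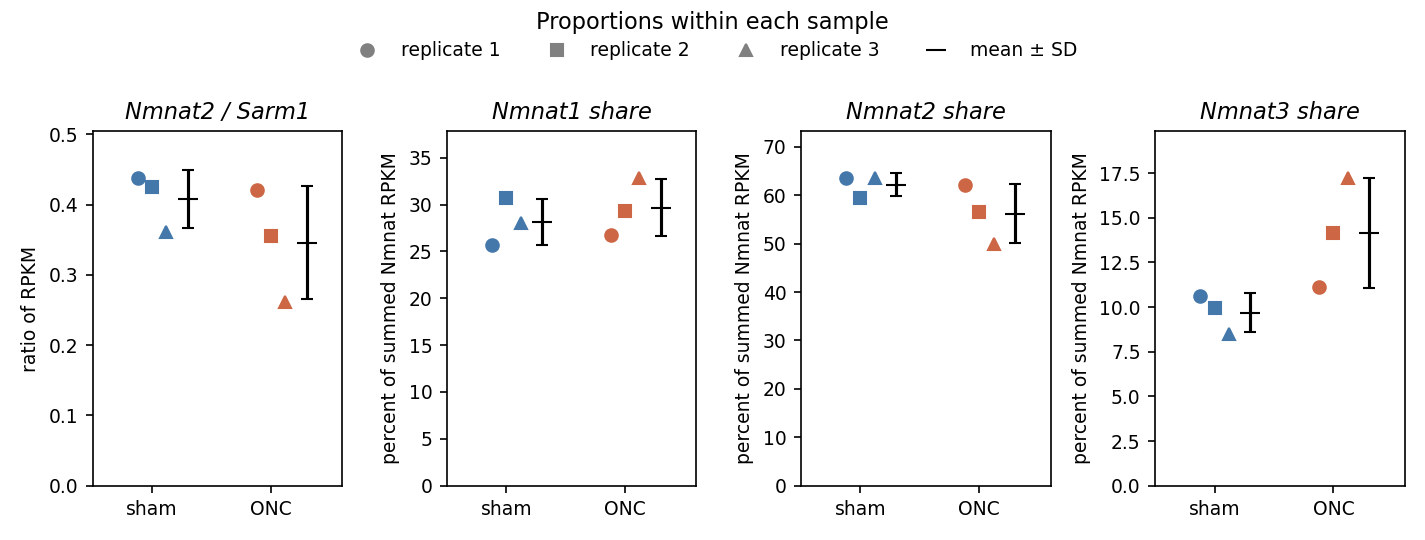
The ratio of Nmnat2 to Sarm1 RPKM (left) and the percentages of the summed Nmnat1, Nmnat2 and Nmnat3 RPKM held by each gene (other panels), per sample, with the mean ± SD beside them and all vertical axes from 0. Nmnat2 held 49.9% to 62.1% in ONC and 59.4% to 63.7% in sham, and ONC replicate 3 is the farthest from sham in the ratio and in the shares of Nmnat2 and Nmnat3.

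Reads on introns, which can come from RNA not yet spliced, were compared in a fit of their own over 11437 genes. Sarm1 was the only member called. It had 234, 184 and 207 intron reads in sham and 92, 117 and 157 in ONC. After normalization the values were 43.7, 32.4 and 34.1 CPM of intron reads in sham and 19.5, 21.2 and 24.6 in ONC, so that every ONC sample was below every sham sample, as in 23.5% of the genes tested in either direction. The log2 fold change was -0.75 (SE 0.21, 95% interval -1.19 to -0.31, adjusted p = 0.0936 in edgeR), against 3.32% of genes called, and Sarm1 was also the only member with an unadjusted p under 0.05, against 18.4% of genes. The call was lost when only unique intron reads were counted (adjusted p = 0.107), with the replicate number as a block (adjusted p = 0.128) and without any 1 of the 6 samples, where the values were between -0.85 and -0.61 and the adjusted p between 0.126 and 0.361. It held with the exon scaling, at -0.99 (adjusted p = 0.0368). That scaling moved the intron values of all 6 genes down, with Nmnat2 going from -0.01 to -0.28.

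For Nampt the intron log2 fold change was -0.39 (95% interval -0.84 to 0.05, adjusted p = 0.331) and for Mycbp2 -0.21 (95% interval -0.52 to 0.10, adjusted p = 0.457), neither called by edgeR. Without sham replicate 1 Nampt introns were at -0.22, and without sham replicate 3 Mycbp2 introns were at -0.09. The exon scaling gave -0.64 and -0.49. Nmnat3, at -0.12, and Nmnat1, at -0.08, were not called either, and Nmnat1 had only 7 to 15 intron reads per sample. Nmnat2 introns gave -0.01 (95% interval -0.42 to 0.41, adjusted p = 0.991). The difference between its exon and intron values was not tested. The exon share of the reads on each gene was higher in all 3 ONC samples than in all 3 sham samples for Nmnat3, Nampt, Sarm1 and Mycbp2, as in 17.4% of all genes tested, against 2.38% with the share lower. For Sarm1 it was 88.5% to 90.6% in sham and 93.2% to 95.5% in ONC. The exon share of whole libraries moved in the same direction, and its part in these values was not tested.

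**Figure D3:**
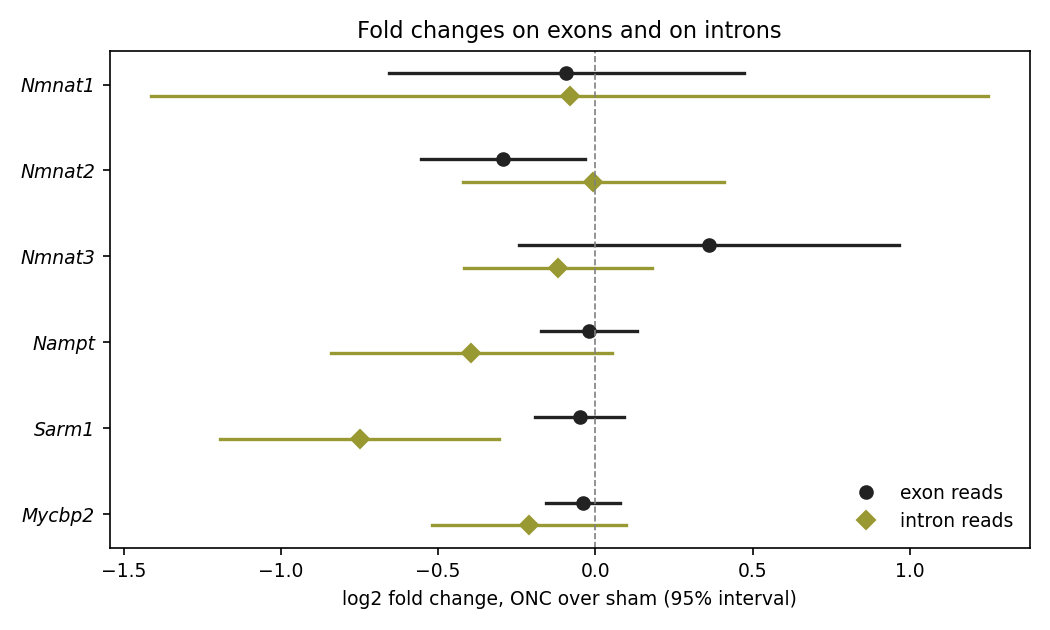
Log2 fold changes of ONC over sham (horizontal axis) of the 6 genes from exon reads (circles) and from intron reads (diamonds), with 95% intervals as lines. The intervals that exclude 0 are those of Nmnat2 exon reads, from -0.56 to -0.03, and Sarm1 intron reads, from -1.19 to -0.31.

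**Figure D4:**
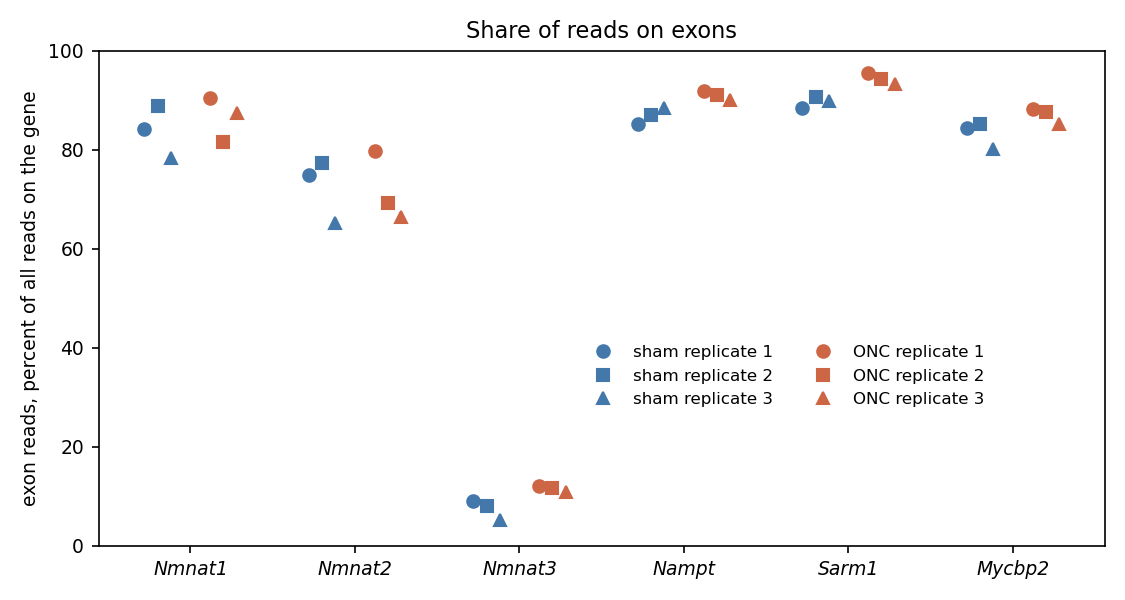
Exon reads as a percentage of all reads on each gene (vertical axis, 0 to 100%) in each sham (blue) and ONC (orange) sample. Nmnat3 is the only 1 of the 6 genes with most of its reads on introns, at an exon share of 5.12% to 12.1%, and the ONC values of Sarm1, 93.2% to 95.5%, all lie above its sham values.

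Other genes of NAD synthesis and salvage were taken from a list of 25, of which 13 were expressed highly enough to be tested. Of these, 2 were upregulated and 0 downregulated in edgeR, against 2.38% and 3.72% of all genes tested, with 3 at an unadjusted p under 0.05, against 16.7%. The median log2 fold change was 0.14, against 0.01 for all genes. Nadk2 (listed as Nadkd1), the mitochondrial NAD kinase that makes NADP, had 213, 192 and 198 CPM in sham and 229, 247 and 263 CPM in ONC. Every ONC sample was above every sham sample, with a log2 fold change of 0.30 (SE 0.06, 95% interval 0.16 to 0.43, adjusted p = 0.00994 in edgeR). Naprt (listed as Naprt1) encodes the enzyme that starts the route from nicotinic acid to NAD. It had 21, 14 and 24 exon reads in sham and 65, 50 and 58 in ONC. It rose by 1.33 on the log2 scale (SE 0.38, 95% interval 0.53 to 2.13, adjusted p = 0.0613 in edgeR), from a low level of 0.437 RPKM in sham. Its call was lost without any 1 sample other than ONC replicate 1, with adjusted p values of 0.106 to 0.210, and that of Nadk2 was lost without sham replicate 2 (adjusted p = 0.107) or ONC replicate 3 (adjusted p = 0.102). The most abundant gene of the list per length, Nt5e, an ectonucleotidase that takes part in the extracellular breakdown of NAD and NMN, was at a log2 fold change of -0.11 (adjusted p = 0.384).

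The 12 genes of this list that were not tested included most of the kynurenine route, which builds NAD from tryptophan. Ido1, Tdo2, Kmo, Kynu, Haao and Qprt had at most 10 exon reads in any sample, so a difference was not detectable at this depth. Nnt is listed with an exon length of 0 and could not be measured from these tables. Scaling by the RPKM divisor raised the number of upregulated genes of the list from 2 to 5. Over all 13670 genes tested it raised that number from 325 to 1507.

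Of 23 enzymes that consume NAD (sirtuins, PARPs, tankyrases, Cd38 and Bst1), 22 were tested and 0 were called by edgeR, against 6.09% of all genes, with 4 at an unadjusted p under 0.05, against 16.7%, and a median log2 fold change of 0.10. Parp3, a DNA-break-dependent PARP, was at 0.70 (adjusted p = 0.101), and the tankyrase gene Tnks was at -0.21 (adjusted p = 0.119). Both lay close to the threshold, and both were called by the DESeq2 Wald test (adjusted p = 0.0866 and 0.0968) and without ONC replicate 1 (adjusted p = 0.0507 and 0.00405). The list count was 2 in both these fits, beside 932 and 2031 of the 13670 genes tested. It was 1 in limma on log2(RPKM + 0.1), beside 1121, and 3, all higher, with the RPKM divisor, beside 1507 genes higher. The most abundant gene per length, Sirt2, a mainly cytoplasmic deacetylase, was at 0.06 (adjusted p = 0.679). Parp1, the main PARP of the DNA damage response, was at -0.002 (SE 0.08).

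Of 19 partners of axon degeneration (the DLK and JNK kinases, calpains, caspases, the Mycbp2 partners Fbxo45 and Skp1, and Stmn2), all were tested, 0 were upregulated and 2 were downregulated in edgeR, against 2.38% and 3.72% of all genes. An unadjusted p under 0.05 was found for 5, against 16.7% of all genes, and the median log2 fold change was -0.003. Mapk10, which encodes the neuronal kinase JNK3, had 121, 114 and 122 CPM in sham and 95.5, 91.6 and 92.9 CPM in ONC. The groups did not overlap, and Mapk10 was downregulated by a log2 fold change of -0.35 (SE 0.06, 95% interval -0.48 to -0.22, adjusted p = 0.00199 in edgeR). This call was kept without each sample in turn, with the replicate block and with the RPKM divisor, and was lost in limma on log2(RPKM + 0.1), at -0.23 (adjusted p = 0.147). Map3k13, which encodes the kinase LZK upstream of JNK, had 56.1, 57.7 and 54.1 CPM in sham and 49.4, 43.4 and 47.4 CPM in ONC. Its log2 fold change was -0.26 (SE 0.08, 95% interval -0.43 to -0.09, adjusted p = 0.0830 in edgeR), and the call was lost without any 1 sample other than ONC replicate 1 (adjusted p = 0.165 to 0.305) and with the RPKM divisor (adjusted p = 0.369). The RPKM divisor turned the count of the list to 3 upregulated and 1 downregulated. Over all 13670 genes tested it turned the counts to 1507 and 223. The most abundant gene of the list per length was Skp1 (listed as Skp1a), a subunit of ubiquitin ligases, at -0.14 (adjusted p = 0.248).

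**Figure D5:**
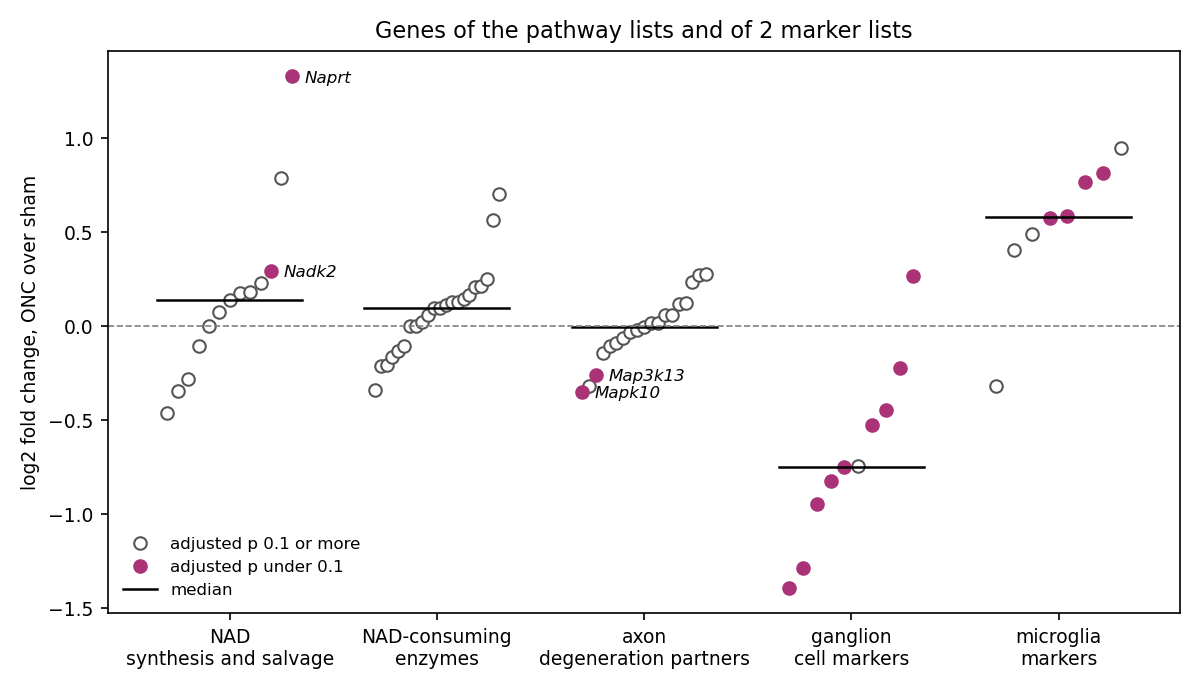
Log2 fold changes of ONC over sham (vertical axis) of each tested gene in the 3 pathway lists and in the lists of RGC and microglia markers, sorted within a list, with filled points for an adjusted p under 0.1 and lines at the medians. Filled points are few in the pathway lists (Nadk2, Naprt, Mapk10 and Map3k13) and make up 9 of 10 RGC markers.

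Markers of some cell types moved with the groups. Of 10 RGC markers, 8 were downregulated and 1 (Slc17a6) upregulated in edgeR, with a median log2 fold change of -0.75. Their summed TMM-normalized RPKM was 572 to 638 in sham and 400.2 to 432 in ONC, and without ONC replicate 1 the counts were 9 and 1. In whole retina, fewer cells of a type and less RNA per cell cannot be told apart. Earlier work cited by the study saw no significant loss of RGCs this early after crush, and RGCs were not counted in these samples. The falling markers ran from -0.22 (Thy1) to -1.39 (Pou4f2), and Slc17a6 was at 0.26. Thy1 was called at an adjusted p of 0.0517 in edgeR. The study, which tested RPKM and required a 1.5-fold change, reported it as not significant. With the RPKM divisor 7 markers were downregulated and 1 upregulated. The part of the RGC shift in the value of Nmnat2 was not tested.

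Of 8 microglia markers, 4 were upregulated and 0 downregulated, with a summed level of 22.8 to 26.7 in sham and 36.2 to 38.8 in ONC. Of the 6 markers of Müller glia and astrocytes, edgeR called 0 (3 at an unadjusted p under 0.05, and 1 to 3 called in the alternatives), of 6 photoreceptor markers 2 were upregulated (Pde6b and Sag; without ONC replicate 1, 3 were higher and 1 lower), and of 5 pigment epithelium and 4 endothelial markers 0 were called. Of the 4 oligodendrocyte markers 2 could be tested and 0 were called, and Mag had 0 to 7 exon reads per sample. The pigment epithelium markers ranged from 68.7 to 95.2 in sham and 56.2 to 86.2 in ONC in summed level and overlapped between the groups. The part of these shifts in the values of the 6 genes was not tested.

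The genes most like each member over the 6 samples were found by Pearson's r of TMM-normalized log2 CPM, among genes with a mean RPKM above 1 in both groups. For Nmnat2 these were Rims3 (r = 0.986) and Lamb1 (r = 0.986), for Nmnat3 Fbxo6 (r = 0.986) and Gpank1 (r = 0.980), and for Nmnat1 Khdrbs2 (r = 0.986) and Rb1 (r = 0.980). For Nampt they were Alg13 (r = 0.996) and Ing5 (r = 0.988), for Sarm1 Elfn1 (r = 0.983) and C1qtnf4 (r = 0.979), and for Mycbp2 Dennd4c (r = 0.993) and Rab21 (r = 0.982). With only 6 samples, which share their depth and pools between all genes, high values are common: 127 genes had an r above 0.9 with Nmnat2 and 48 with Sarm1, of 11608 compared.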

How the data were processed

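RNA from 3 ONC and 3 sham pools was sequenced by Illumina from TruSeq libraries and mapped by the authors with CLC Genomics Workbench. The authors deposited counts of reads per gene (exons, whole genes, total and unique), not normalized, and RPKM, which equal the exon reads per kilobase divided by all reads on genes. Labels and paper name mm9, but 91.3% of 29908 gene starts in the files lie within 1 kb of RefSeq on GRCm38.p6.

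Genes whose mean RPKM passed 0.3 in either group were kept, and their total exon reads were compared with edgeR 4.0.16 (TMM, glmQLFit, glmQLFTest) in R 4.3.3 and adjusted by the Benjamini-Hochberg method. The SE is the log2 fold change over the square root of F. Intron reads (gene minus exon reads, at least 10 in 3 samples) were tested likewise, with TMM factors of their own. DESeq2 1.42.0 and limma 3.58.1 served as alternatives. Single values were compared by exact permutation tests (scipy 1.17.1). All exon reads of the 6 genes were unique. Tests were checked on simulated counts. Members and gene lists were chosen with earlier results of these data known. Named genes are the members, list genes with an adjusted p under 0.1, the most abundant of each pathway list, genes needed to explain small counts, up to 3 markers per list and the 2 most correlated genes per member. Parp1, Thy1, Pou4f2 and the kynurenine genes were chosen after their values were seen.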

Additional observations from a re-analysis of the deposited data

How the results depend on the processing

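The count of members called was 1 with no filter on RPKM, in a fit that called 1176 of 17655 genes tested. It was 0 to 1 over the fits without 1 sample, and 0 in the others. With the RPKM divisor 1730 genes were called and 350 were DEGs, and with total gene reads 342 were DEGs; without 1 sample, 371 to 2031 genes were called and 153 to 353 were DEGs. Nmnat2 stayed below 0 in all 17 alternatives, at -0.46 to -0.16 without 1 sample, and passed the threshold with no filter on RPKM (-0.29). Nmnat3 was above 0 in all but total gene reads (-0.26), at 0.22 to 0.46 without 1 sample. The signs of Nmnat1, Nampt, Sarm1 and Mycbp2 turned to 0.0264, 0.103, 0.0729 and 0.0839 with the RPKM divisor, to 0.0358, 0.0996, 0.0719 and 0.0838 in limma on log2(RPKM + 0.1) and to 0.0252, 0.0932, 0.0679 and 0.0791 with a pseudocount of 1, none called, beside the shift of the median of all genes to 0.13 and 0.11. Nampt was also above 0 without TMM (0.00679), and between -0.0664 and 0.0357 without 1 sample, and Nmnat1 between -0.157 and 0.00504. On introns, Sarm1 was at -0.73 with unique reads and -0.74 with the replicate block, and at -0.85 to -0.61 without 1 sample, none called. Nmnat1 introns ranged from -0.414 to 0.0834 and Nmnat2 introns from -0.15 to 0.14 without 1 sample. The causes were not tested. The ratio of Nmnat2 to Sarm1 and the share of Nmnat2 were lower in ONC without each sample in turn. The differences were -0.42 to -0.07 (log2) and -8.98 to -2.87 percentage points. Unique reads and the replicate block could not move these values. All exon reads of these genes were unique, and the mean of same-numbered differences equals the difference of the means. With the replicate block, Nmnat2 introns were at 0.00373, Map3k13 lost its call (adjusted p = 0.122), the microglia list had 2 calls, the photoreceptor list and the Müller glia and astrocyte list 1 each, and the count of genes called was 728. Same-numbered sham and ONC samples did not deviate together (correlations -0.07, -0.02 and 0.003), so the numbers were not taken to pair the samples. The fit without ONC replicate 1 and the other tools for the gene lists were chosen after seeing the data. Depth limits Nmnat1 and Nmnat3, with 37 to 82 exon reads per sample.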
